A study of Mus musculus with 12 samples.

Results

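The complement genes of primary mouse hepatocytes were examined as 34 genes, chosen by symbol out of the 55450 genes quantified by RNA-Seq. They comprise 11 genes of the classical pathway, 4 of the lectin pathway, 4 of the alternative pathway with C3, 7 of the terminal pathway, 6 regulators and 2 receptors. The 12 libraries fell into 4 groups of 3. KO hepatocytes carried the genotype CebpaΔAlb, in which Cre recombinase driven by the albumin promoter deletes floxed alleles of Cebpa, and WT hepatocytes carried the same floxed alleles (Cebpafl/fl) without deletion. OE hepatocytes received an adenovirus expressing mouse Cebpa (Ad-m-Cebpa), and GFP hepatocytes received one expressing green fluorescent protein (Ad-GFP). CEBPA is a leucine zipper transcription factor abundant in adult hepatocytes. The albumin promoter drives Cre in hepatocytes of the living animal, whereas the labels of OE and GFP name a virus and no host genotype. Only male mice were used in the study. Ages and a duration of viral exposure are stated for other primary hepatocyte experiments of the study, but not for these libraries. Libraries of a group are labelled as biological replicates, but separate mice or cultures are not named, so the p values measure the spread between these libraries, which may be technical. The total estimated read count per library was 20368564 to 23304230 in KO, 20966339 to 23261800 in WT, 20160081 to 23193817 in OE and 20467466 to 22132226 in GFP.

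Complement is a cascade of plasma proteins that tags and lyses microbes, and the liver secretes most of it. The classical pathway starts with C1q and the proteases C1r and C1s, and the lectin pathway starts with mannose-binding lectins and their proteases, the MASPs. Both cleave C4 and C2 to build an enzyme that activates C3, the central component. The alternative pathway amplifies C3 cleavage through factor B and factor D. C5 to C9 then assemble a pore, the membrane attack complex, and a set of plasma and membrane inhibitors holds each step in check. C1q, properdin and the receptors for C3a and C5a are known mainly from macrophages and other myeloid cells rather than from hepatocytes.

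Cebpa itself, measured as a check of the labels, was at 0.963, 0.257 and 0.164 CPM in the KO libraries, against 309, 229 and 290 CPM in WT. It was at 13292, 13652 and 14079 CPM in OE, against 47.9, 50.6 and 54.3 CPM in GFP. CPM is a count divided by its library's total and multiplied by 1e6, scaled with TMM factors within each comparison. The 2 experiments thus have separate CPM scales, and no CPM level of one was tested against the other. Ranges of CPM given over both experiments are description only. The 9 hepatocyte markers found, which include Alb and Apoa1, summed to 119381 to 141889 CPM in KO, 107537 to 109390 in WT, 10563 to 11053 in OE and 23914 to 24495 in GFP. Alb supplied most of each sum. Of the 9, only Cps1 was higher in OE than in GFP, at 735 to 817 against 217 to 252 CPM. Serpina1a was lower in KO than in WT, at 2847 to 3089 against 3672 to 3880 CPM. Summed markers of other cell types were 21.1 to 47.7 CPM (KO), 18.6 to 32.7 (WT), 31.3 to 33.7 (OE) and 44.9 to 49.1 (GFP) for endothelium. For stellate cells and fibroblasts they were 15.7 to 24.1 CPM (KO), 5.42 to 11.6 (WT), 41.2 to 41.9 (OE) and 9.59 to 11.97 (GFP). Reln was the largest item, at 10.4 to 15.6 CPM (KO), 3.61 to 5.73 (WT), 28.6 to 30.8 (OE) and 4.77 to 7.55 (GFP). Dcn and Col3a1 were also higher in OE than in GFP. Lrat, Pdgfrb, Col1a2, Rgs5 and Hgf stayed at or below 0.987 CPM in OE and GFP and overlapped between them. Bile duct markers summed to 16.1 to 37.6 CPM over all libraries, lymphocyte markers to at most 0.235 CPM and adipocyte markers to at most 73.5 CPM. Neutrophil markers reached at most 0.617 CPM outside OE, where S100a8 and S100a9 brought the sum to 525 to 621 CPM while Ly6g and Mpo were at 0 in every library. The part of these cells in the results below was not tested, and in bulk RNA fewer cells of a type and less RNA per cell cannot be told apart.

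The 2 comparisons differed widely in how many complement genes were called. In KO against WT, 28 of the 34 genes had enough counts to be tested, and 2 of them passed an adjusted p of 0.05 (edgeR's quasi-likelihood test with Benjamini-Hochberg adjustment over all genes). C4a and C6 fell in KO, and none of the 28 was called higher. Of all 11846 genes tested, 1.02% were called lower and 0.692% higher. At an unadjusted p under 0.05, 5 of the 28 were higher and 4 lower, where 1644 of all 11846 genes passed. DESeq2 called 2 higher and 3 lower of 32 tested, and 283 higher and 342 lower of all 14745 genes it tested. The median log2 fold change of the 28 was 0.28, against 0.01 for all genes tested. The 3 KO libraries lay wholly above the 3 WT libraries in 7 of the 28 (C1ra, C1s1, C2, Hc, C8a, C9 and Cfi), where 9.66% of all genes did so, and wholly below in 4 (C4a, C6, C1rl and Cd59a), where 10.4% did.

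In OE against GFP nearly every complement gene was called. Of 26 genes tested, 9 rose and 16 fell, against 43.9% and 42.7% of all 14889 genes tested, and C4bp was not called, though it was under 8 of 15 alternative settings. At least 2-fold rises were seen in 4 of them (C1rb, C1rl, Masp1 and Cd55), against 23.5% of all genes, and at least 2-fold falls in 9 (C2, C4a, C4b, Hc, Cfi, Cfp, Masp2, Mbl2 and Clu), against 18.5%. The groups did not overlap in any of the 25 called genes, 9 above and 16 below. Over all genes tested 44.1% lay above and 42.9% below in this way. The median log2 fold change of the 26 was −0.62, against 0.01 for all genes tested. With so many genes called, a call by itself sets no complement gene apart in this comparison. Of all calls 50.7% were higher in OE, and on a scale of TPM, the length-corrected unit of RSEM, 63.4% were, with the median of all genes moved up to 0.27. On that scale (limma on log2(TPM + 1)) 10 complement genes rose and 14 fell, of 25 tested.

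**Figure D1:**
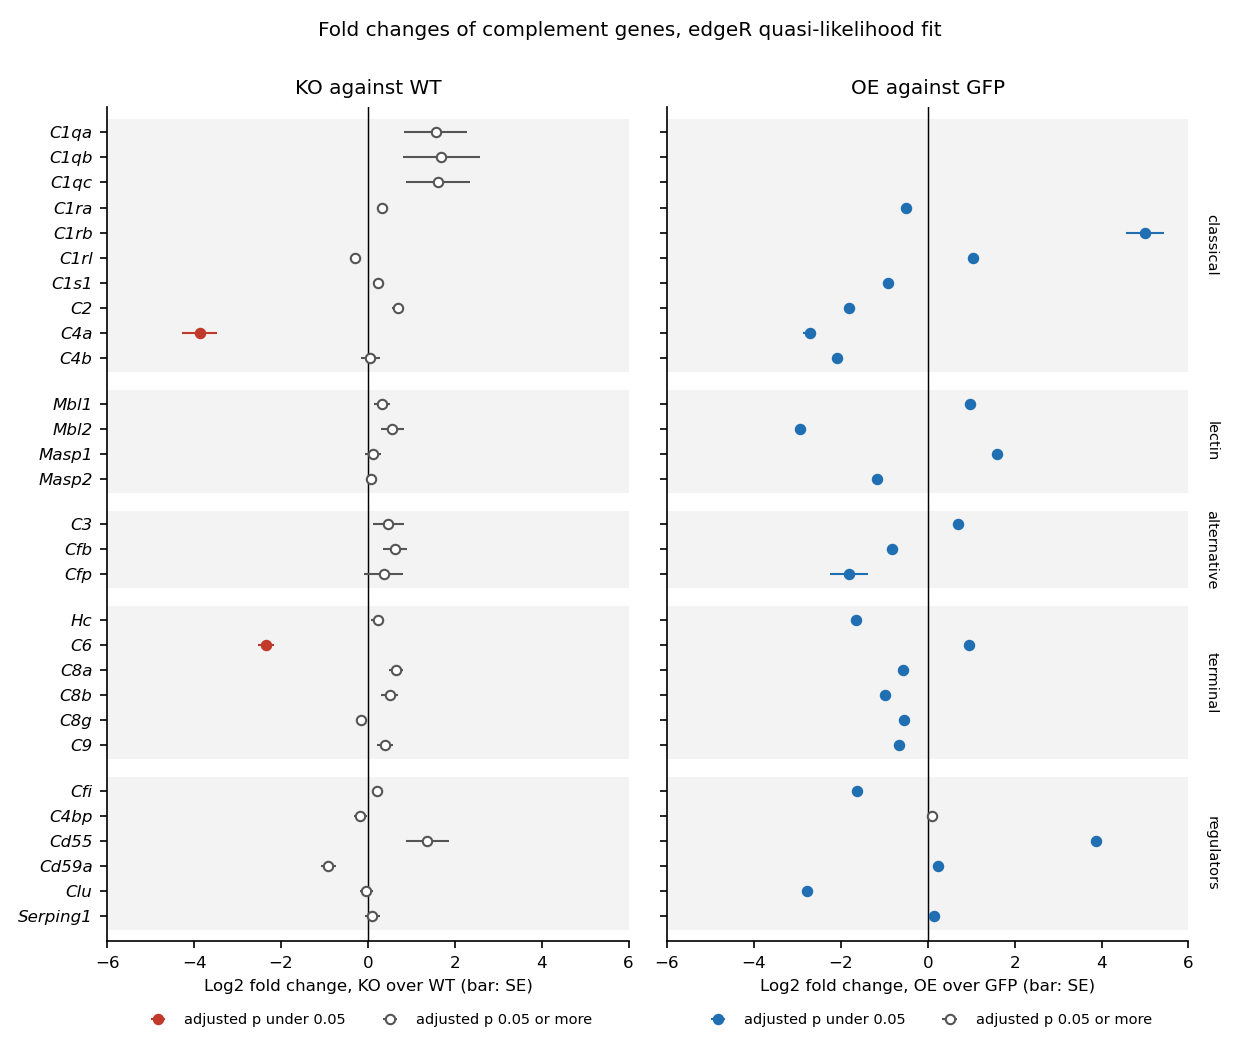
Log2 fold changes of the 29 complement genes tested in at least 1 comparison, KO over WT on the left and OE over GFP on the right, grouped by pathway, with bars for the standard error. Filled points passed an adjusted p of 0.05: 2 genes on the left, both below 0, and 25 on the right, 9 above 0 and 16 below.

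In TPM, which takes transcript length into account, the 34 genes made up 1.14% to 1.54% of all mRNA in KO and 1.01% to 1.37% in WT, and 0.293% to 0.305% in OE and 0.506% to 0.514% in GFP. C3 had the highest TPM of the set in KO, WT and OE, with means of 4161 ± 1675, 3116 ± 839 and 762 ± 14.4 TPM (SD, n = 3 each). In GFP, Clu (clusterin, a secreted chaperone that also blocks pore assembly) stood first at 2286 ± 25.97 TPM, and C3 was at 374 ± 5.28 TPM. Clu took 9.80% of the summed TPM of the 34 genes in KO, 12.3% in WT, 13.9% in OE and 44.8% in GFP. C3 took 29.1% in KO, 26.6% in WT, 25.4% in OE and 7.33% in GFP. Serping1, the C1 inhibitor, was the third largest item in OE at 13.4%, against 5.59% in GFP. GFP hepatocytes also differed in level from WT hepatocytes for many of these genes, with mean TPM of 32.5 in GFP against 470 in WT for Hc, 18.2 against 576 for C8a and 61.9 against 613 for C9. GFP cells received a virus that WT cells did not, and nothing given here says whether the cells were otherwise handled alike, so the virus and any such difference cannot be told apart and these levels were not tested against each other.

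**Figure D2:**
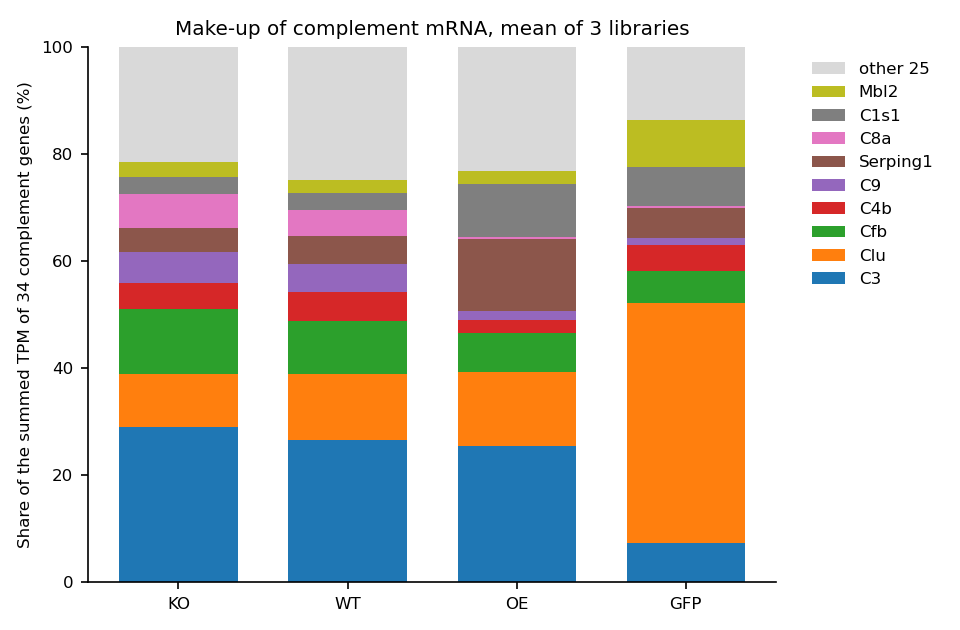
Share of the summed TPM of the 34 complement genes taken by each of 9 abundant genes, in percent, as the mean of 3 libraries for KO, WT, OE and GFP. Clu fills 44.8% of the GFP bar and 13.9% of the OE bar, while C3 fills 7.33% and 25.4% of them.

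C1q, the recognition molecule of the classical pathway, is built from the products of C1qa, C1qb and C1qc, which lie side by side on chromosome 4. C1qa was at 3.27, 3.91 and 1.31 CPM in KO, against 0.183, 0.731 and 1.93 CPM in WT. The groups overlapped, because WT3 was above KO3, and the log2 fold change of 1.56 ± 0.72 (SE, adjusted p = 0.402) was not called. C1qb (1.68 ± 0.89, adjusted p = 0.447) and C1qc (1.61 ± 0.73, adjusted p = 0.388) also had KO1 and KO2 highest, WT3 above KO3 and WT1 lowest. Leaving out 1 library gave 1.08 to 2.59 for C1qa, 1.202 to 3.57 for C1qb and 1.199 to 2.87 for C1qc, each highest without WT3 and none called. The 15 macrophage and Kupffer cell markers, all found, summed to 39.7, 59.0 and 11.9 CPM in KO, against 3.80, 5.67 and 20.1 CPM in WT. The Kupffer cell lectin Clec4f was at 8.66, 7.87 and 2.59 CPM in KO, against 0.962, 1.16 and 5.39 CPM in WT. In OE and GFP the 3 C1q genes were at 0.0497 to 0.536 CPM and too low to be tested. The marker sum was 174 to 199 CPM in OE and 170 to 188 CPM in GFP, but Cd68 and Cd14 supplied nearly all of it, and Adgre1, Clec4f, Timd4 and Marco were at 0 in every GFP library and at most 0.248 CPM in OE. The part of macrophages in the C1q levels was not tested.

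**Figure D3:**
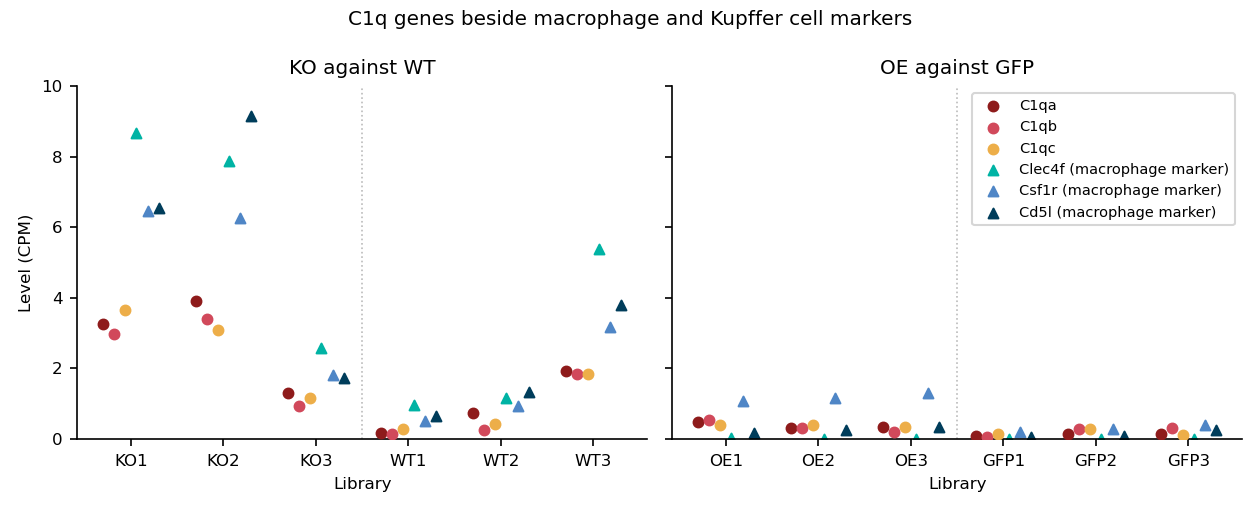
Levels of C1qa, C1qb and C1qc (circles) and of the macrophage markers Clec4f, Csf1r and Cd5l (triangles) in CPM, by library, with KO and WT on the left and OE and GFP on the right. KO1, KO2 and WT3 stand highest for all 6 genes, and all 6 stay at or below 1.32 CPM in OE and GFP.

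The C1 proteases moved apart from each other in OE. C1s1, which encodes C1s, was at 319, 310 and 295 CPM in OE, against 603, 572 and 559 CPM in GFP (log2 fold change −0.91 ± 0.04, adjusted p = 7.74e-12). C1ra, which encodes C1r, fell less (−0.49 ± 0.03, adjusted p = 1.81e-09). C1rl, a C1r-like protease gene, went the other way, with 44.1, 42.7 and 43.4 CPM in OE, against 21.3, 19.8 and 22.3 CPM in GFP (1.04 ± 0.05, adjusted p = 1.76e-10). In KO against WT, C1rl had the opposite sign and was not called (−0.30 ± 0.10, adjusted p = 0.26), and neither were C1ra (0.33 ± 0.12, adjusted p = 0.3) and C1s1 (0.24 ± 0.11, adjusted p = 0.41). C1rb, a copy of the C1r gene, was at 3.30, 2.74 and 2.35 CPM in OE, against 0.149, 0.094 and 0 CPM in GFP (4.999 ± 0.43, adjusted p = 4.86e-08). The GFP libraries held 2.81, 2.12 and 0 estimated counts of it, and without GFP1 the log2 fold change was 5.67. C1rb shares 59.2% of its 50-base stretches with C1ra, so that reads may have been divided between these copies. C1s2, which shares 26.9% of such stretches with C1s1, held 2.13 to 12.4 counts in every library and was not tested. These 5 genes lie within 1 cluster on chromosome 6, so neighbours there differed in direction. C1s1 also shares 18.4% of its exon bases with Gm16567 on the opposite strand, and whether the counting used strand is not given in the sources used here.

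C4 is cleaved by C1s and by MASP2 and forms the core of the C3 convertase of both pathways. Mice carry C4b, which encodes the active protein, and C4a, known as sex-limited protein, a relative without hemolytic activity. C4a (ENSMUSG00000015451.16, chromosome 17, minus strand, mm10, 34809092 to 34823464) was at 1.68, 5.09 and 3.45 CPM in KO, against 65.3, 47.7 and 36.1 CPM in WT. The groups stood far apart, with a log2 fold change of −3.87 ± 0.40 (adjusted p = 0.00786), which is 14.6-fold lower in KO. C4a also fell in OE, to 1.32, 1.39 and 1.22 CPM, against 7.70, 9.92 and 8.42 CPM in GFP (−2.72 ± 0.16, adjusted p = 5e-10). Of the 34 genes, C4a was the single one called in the same direction in both comparisons, though only C4a and C6 were called in KO. The difference between the 2 effects on C4a was not called (1.18 ± 0.48, adjusted p = 0.0542). C4b behaved differently in KO, where its libraries of 2155, 2007 and 1430 CPM overlapped those of WT at 1390, 1856 and 2125 CPM (0.06 ± 0.21, adjusted p = 0.923). In OE, C4b fell to 167, 169 and 153 CPM, against 699.6, 690.1 and 683 CPM in GFP (−2.08 ± 0.04, adjusted p = 1.25e-15). C4a shares 30.6% of its 50-base stretches with C4b, and the annotation lists it as a processed transcript, so a part of its count may come from reads divided between the copies.

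C2, the protease that joins C4 in the convertase, was at 216.5, 203 and 175 CPM in KO, against 102, 134 and 131 CPM in WT. All KO libraries were above all WT libraries, but the log2 fold change of 0.70 ± 0.14 was not called (adjusted p = 0.074). It was called at 0.69 by DESeq2 (adjusted p = 0.00127) and at 0.78 without KO3 (edgeR, adjusted p = 0.0462). In OE it fell to 22.8, 23.9 and 21.2 CPM, against 80.3, 81.6 and 78.5 CPM in GFP (−1.82 ± 0.05, adjusted p = 7.89e-14). C2 shares 42.8% of its exon bases, and its neighbour Cfb 79.5%, with the gene Gm20547, which runs through both on the same strand. Gm20547 was at 0 to 7.51 CPM in the 12 libraries.

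**Figure D4:**
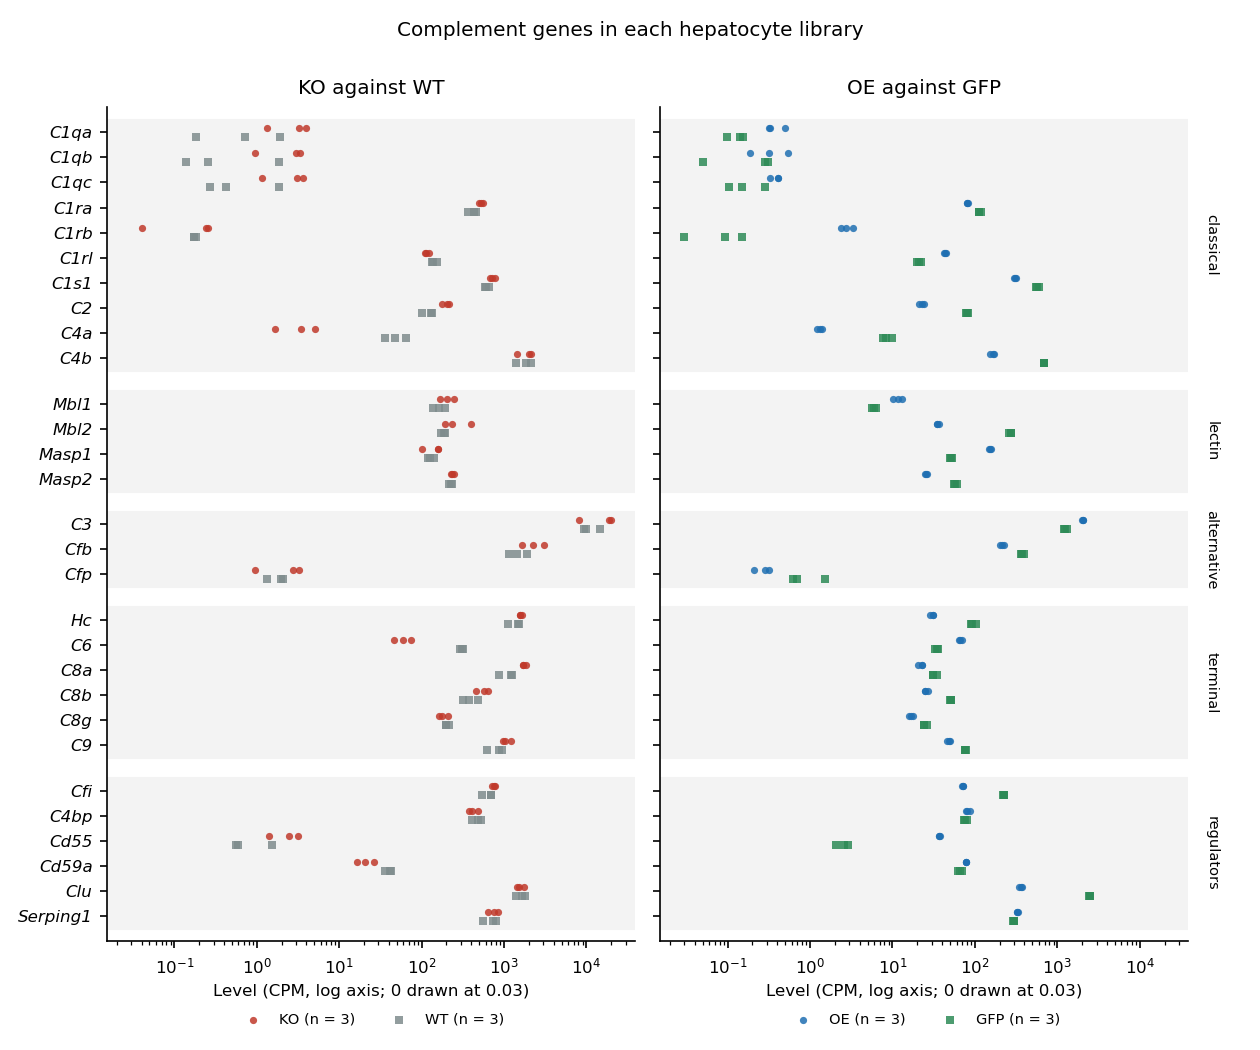
CPM on a log axis of the 29 complement genes tested in at least 1 comparison, each point 1 library, with KO above WT in each row on the left and OE above GFP on the right. C6 and C4a are the genes whose KO points stand far to the left of their WT points, while most rows on the right separate completely.

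In the lectin pathway the 2 lectins moved in opposite directions in OE, and so did their proteases. Mbl2 encodes mannose-binding lectin C and had the lowest p of any complement gene in OE. It was at 36.3, 34.5 and 34.5 CPM in OE, against 278, 258.5 and 278 CPM in GFP (−2.95 ± 0.04, adjusted p = 7.53e-17). Mbl1, which encodes mannose-binding lectin A, rose to 13.1, 11.6 and 10.2 CPM, against 5.91, 6.25 and 5.70 CPM (0.97 ± 0.11, adjusted p = 1e-06). Within a library the TPM of Mbl2 was 4.08 to 5.14 times that of Mbl1 in OE and 60.7 to 64.8 times in GFP, while it was 1.36 to 2.42 times in KO and 1.45 to 1.91 times in WT. Masp1, whose protease activates MASP2, was at 157, 149.7 and 154 CPM in OE, against 52.1, 49.4 and 50.8 CPM in GFP (1.60 ± 0.03, adjusted p = 7.01e-15). Masp2, whose protease cleaves C4 and C2, fell to 26.5, 25.02 and 25.9 CPM, against 61.2, 57.1 and 55.7 CPM (−1.17 ± 0.05, adjusted p = 1.97e-11). The ratio of Masp2 to Masp1 in TPM was 0.670 to 0.725 in OE and 4.12 to 4.38 in GFP, so their order by level differed between those groups. Masp2 shares 54.9% of its exon bases with Tardbp on the opposite strand, and Tardbp was higher in OE by a log2 fold change of 0.18 ± 0.03 (adjusted p = 5.58e-05). In KO none of the 4 genes was called and all overlapped with WT: Mbl2 had a log2 fold change of 0.56 ± 0.26, Mbl1 of 0.32 ± 0.19, Masp1 of 0.11 ± 0.19 and Masp2 of 0.08 ± 0.10 (adjusted p from 0.401 to 0.811). KO2 held the highest Mbl2 level at 397 CPM, against 174 to 193 CPM in WT.

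C3 (chromosome 17, minus strand, mm10, 57203970 to 57228136) was at 18603, 19983 and 8076 CPM in KO, against 9886, 9348 and 14448 CPM in WT. KO1 and KO2 were above every WT library and KO3 was below all of them. The log2 fold change of 0.47 ± 0.35 was not called (adjusted p = 0.586). The summed level of 20 inflammatory and acute phase genes, none of them a complement gene, ordered the libraries in nearly the same way, at 29660, 38894 and 12137 CPM in KO, against 11029, 13797 and 24021 CPM in WT. KO3 was the lowest of the KO libraries for all 20, and for 17 of the 28 complement genes. The share of all genes with KO3 lowest was not computed, so these counts set no complement gene apart. For C1qa, C1qb, C1qc, C3 and Cfp the gap to KO3 was over 2-fold in both KO1 and KO2. The part of the acute phase genes in the C3 level was not tested. In OE, C3 was at 2064, 2059 and 1968 CPM, against 1296, 1216 and 1245 CPM in GFP, a rise of 0.70 ± 0.04 on the log2 scale (adjusted p = 1.16e-10). The acute phase sum was lower in OE than in GFP, at 7114 to 7550 CPM against 14217 to 15154 CPM, but its genes did not move together. Most of the gap came from Hp (1460 to 1580 against 3276 to 3554 CPM) and Hpx (2151 to 2272 against 6997 to 7640 CPM). Orm1 (978 to 1035 against 456 to 479 CPM), Orm2, Fgb, Cxcl2, Nfkbia, Tlr2 and Socs3 were higher in every OE library than in every GFP library. The difference of the 2 effects on C3 was 0.26 ± 0.38 and was not called (adjusted p = 0.618). Its promoter is shown because C3 is the most abundant complement mRNA in KO, WT and OE. It was chosen for print after its values were seen. The sequence, from RefSeq on GRCm38.p6, covers the bases −100 to −1 before the start site (chr17:57228137-57228236, minus strand), with capitals for matches to TTNCNNAA, a loose form of the CEBP site, on either strand.
C3: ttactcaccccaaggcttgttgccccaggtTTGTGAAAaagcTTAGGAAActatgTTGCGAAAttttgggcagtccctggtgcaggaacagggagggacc
The match nearest the start site, at −45 to −38, also fits the stricter TTGCNNAA.

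Cfb encodes factor B, the protease of the alternative C3 convertase. Its level was 2272, 3025 and 1634 CPM in KO, against 1137, 1451 and 1901 CPM in WT, with overlap (0.63 ± 0.27, adjusted p = 0.368). In OE it fell (−0.82 ± 0.04, adjusted p = 5.24e-11), opposite to C3. Cfp, which encodes properdin, the stabiliser of that convertase, was at 0.206, 0.314 and 0.282 CPM in OE, against 0.696, 1.504 and 0.616 CPM in GFP (−1.81 ± 0.44, adjusted p = 0.00153). In KO it was at 3.27, 2.78 and 0.944 CPM, against 1.33, 1.98 and 2.10 CPM in WT (0.36 ± 0.46, adjusted p = 0.751). Cfd, which encodes factor D and is best known from fat tissue, held 1 to 8 counts per library in KO and 2 to 17 in WT. It held 0 counts in all libraries of OE and GFP and was not tested.

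C6 was the only gene of the 34 that was called in both comparisons with opposite directions. C4a and C6 were the only genes of the 34 called in KO. In OE 43.9% of all genes tested were called higher and 42.7% lower. The share of all genes called in both comparisons with opposite directions was not computed. C6 (chromosome 15, plus strand, mm10, 4727175 to 4814967) joins C5b and C7 in the first steps of pore assembly. It was at 59.7, 46.5 and 74.4 CPM in KO, against 288.5, 318.5 and 313 CPM in WT, a fall by 2.35 on the log2 scale (SE 0.18, adjusted p = 0.00218) or 5.09-fold. In OE it was at 69.4, 66.0 and 64.5 CPM, against 34.8, 32.6 and 35.7 CPM in GFP, a rise of 0.96 ± 0.05 or 1.94-fold (adjusted p = 9.89e-11). Neither pair of groups overlapped. The difference of the 2 effects was 3.32 ± 0.20 (adjusted p = 1.19e-07). In TPM, C6 averaged 33.5 ± 7.68 in KO, 172 ± 8.93 in WT, 62.8 ± 1.44 in OE and 22.99 ± 1.41 in GFP (SD, n = 3 each). OE thus stood above GFP and below WT. The C6 promoter is shown because of these opposite calls. The printed part, from RefSeq on GRCm38.p6, runs from −250 to −36 before the start site (chr15:4726960-4727174, plus strand), with capitals for matches to TTNCNNAA.
C6: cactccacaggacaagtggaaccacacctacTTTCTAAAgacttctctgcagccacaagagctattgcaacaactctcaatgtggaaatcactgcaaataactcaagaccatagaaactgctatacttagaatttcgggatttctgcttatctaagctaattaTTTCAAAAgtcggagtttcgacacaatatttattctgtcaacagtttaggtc
The matches lie at −219 to −212 and −87 to −80, and the letters TTGCNNAA were not found in its window.

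**Figure D5:**
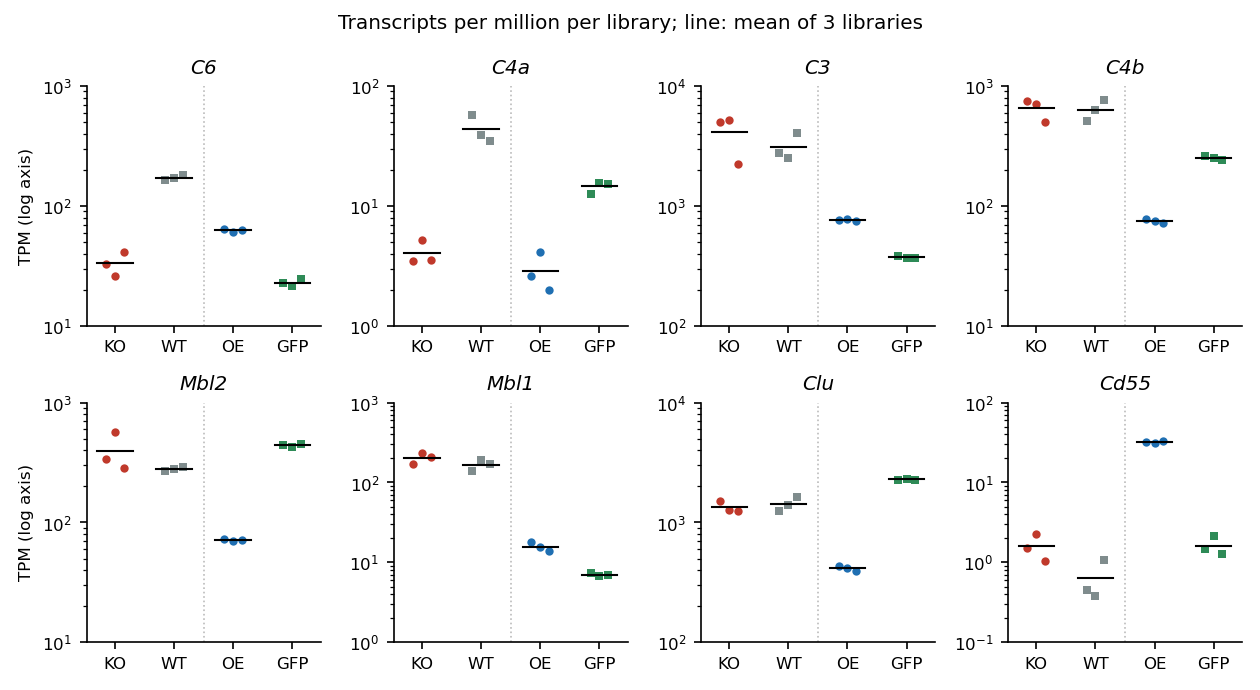
TPM on log axes of 8 complement genes, each point 1 library and each line the mean of 3, in the order KO, WT, OE and GFP. C6 is lower in KO than in WT and higher in OE than in GFP, C4a is lower in both KO and OE, and Mbl2, Clu and C4b are lower in OE than in GFP and overlap between KO and WT.

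Promoter windows of 300 bases, 250 before the start site and 50 after, were matched in RefSeq for 25 of the 34 genes, which had 27 windows. TTGCNNAA occurred on either strand in 6 of the 27 windows, from 6 genes (C1ra, C1rb, C1rl, C1s1, C3 and C9), and in 10.8% of all 32851 windows. The looser TTNCNNAA, which includes every TTGCNNAA match, occurred in 15 of the 27 (14 genes) and in 40.7% of all windows. An NF-kB motif (GGGA, then any 4 bases, then CC) occurred in 7 of the 27 (6 genes) and in 20.7% of all windows. TTCNNNGAA, a STAT motif, occurred in 5 of the 27 (5 genes) and in 8.3%. C1ra and its copy C1rb held the same letters, TTATGCAA for the stricter CEBP form and TTCCCTGAA for the STAT motif. Their matches may thus not be separate, although each gene was counted. The TTATGCAA of C1ra lay after the start site, at 16 to 23, and that of C1rb before it, at −135 to −128. Of the 6 genes with TTGCNNAA, C1rb, C1rl and C3 rose in OE, C1ra, C1s1 and C9 fell, and none of those tested was called in KO. A match is a string of letters and not a measured binding site.

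The other genes of the terminal pathway did not follow C6. Hc encodes C5, whose cleavage starts pore assembly. It was at 1580, 1578 and 1634 CPM in KO, against 1112, 1536 and 1464 CPM in WT, without overlap but not called (0.22 ± 0.15, adjusted p = 0.536). In OE, Hc fell to 30.9, 28.6 and 30.9 CPM, against 102, 91.0 and 92.9 CPM in GFP (−1.66 ± 0.05, adjusted p = 4.04e-13). C8a, C8b and C8g encode the 3 chains of C8, which inserts into the membrane. They fell in OE by 0.56, 0.99 and 0.56 on the log2 scale (adjusted p of 1.67e-06, 8.18e-11 and 1.95e-06). C8g was no longer called by limma on TPM, with −0.19 on log2(TPM + 1) (adjusted p = 0.063). In KO, C8a was at 1696, 1701 and 1841 CPM, against 879, 1226 and 1235 CPM in WT, and its log2 fold change of 0.65 ± 0.16 was not called by edgeR (adjusted p = 0.12) but was by DESeq2 (0.65, adjusted p = 0.00532). C8b had 0.50 ± 0.19 (adjusted p = 0.317) and C8g −0.15 ± 0.12 (adjusted p = 0.604). C9, which polymerises to form the pore, fell in OE by 0.67 (SE 0.04, adjusted p = 7.95e-10) and had 0.39 ± 0.18 in KO (adjusted p = 0.398). C6 and C9 both lie on chromosome 15, and the TPM of C9 was 21.5 to 27.9 times that of C6 in KO, 2.95 to 4.001 times in WT, 0.731 to 0.821 times in OE and 2.61 to 2.84 times in GFP. C7, which lies between them and encodes the next component of the pore after C6, held 1 count in OE3 and 0 in all other libraries.

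Among the regulators the largest changes in OE were in Cd55 and Clu. Cd55 encodes decay accelerating factor, a membrane protein that takes C3 convertases apart. It was at 37.4, 36.9 and 37.0 CPM in OE, against 2.58, 2.91 and 2.05 CPM in GFP (3.87 ± 0.09, adjusted p = 2e-14), or 14.6-fold. In KO it was at 2.45, 3.19 and 1.40 CPM, against 0.595, 0.559 and 1.54 CPM in WT, with overlap (1.37 ± 0.49, adjusted p = 0.284). Clu fell to 372, 364 and 341 CPM in OE, against 2480, 2472 and 2433 CPM in GFP (−2.78 ± 0.04, adjusted p = 1.16e-16), and had −0.04 ± 0.14 in KO (adjusted p = 0.932). Cfi encodes factor I, the protease that inactivates C3b and C4b. It was at 72.7, 72.8 and 70.3 CPM in OE, against 227, 224 and 218 CPM in GFP (−1.63 ± 0.03, adjusted p = 1.6e-15), and had 0.21 ± 0.13 in KO (adjusted p = 0.502).

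The remaining regulators changed little in OE. Cd59a, which encodes the membrane inhibitor of the pore, rose by 0.24 ± 0.04 (adjusted p = 6.87e-05), and Serping1 rose by 0.13 ± 0.03 (adjusted p = 0.000556). Neither was called in a joint fit of all 12 libraries (adjusted p of 0.118 and 0.334). C4bp encodes the C4b-binding protein, a cofactor of factor I. Its OE libraries of 87.2, 77.5 and 79.8 CPM overlapped the GFP libraries of 79.8, 73.6 and 76.9 CPM (0.09 ± 0.05, adjusted p = 0.0859). It was called higher under 8 of 15 alternatives, among them the stricter filter (0.13, adjusted p = 0.0147), limma on log2(TPM + 1) (0.37, adjusted p = 0.000336) and the fit without OE2 (0.14, adjusted p = 0.0191), and over all 15 the adjusted p was 0.000336 to 0.43. In KO, Cd59a was at 20.7, 16.5 and 26.4 CPM, against 41.3, 42.3 and 36.2 CPM in WT, all lower but short of the threshold (−0.91 ± 0.17, adjusted p = 0.0589). It was called by DESeq2 (−0.92, adjusted p = 0.000453) and, in edgeR, without KO3 (−1.10, adjusted p = 0.0179). C4bp had −0.18 ± 0.15 (adjusted p = 0.621) and Serping1 0.10 ± 0.18 (adjusted p = 0.822) in KO. The receptors C3ar1 and C5ar1, which sense C3a and C5a, held 0 to 7 and 0 to 4 counts per library and were not tested.

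The effects of gain and loss were compared directly as OE over GFP less KO over WT, in a joint fit of all 12 libraries. Of 29 complement genes tested, 7 were called with a positive difference and 15 with a negative one, against 25.9% and 28.1% of all 15326 genes tested. The positive ones were C6, C1rb, C1rl, Masp1, Mbl1, Cd55 and Cd59a. C6 was the only one of them that was also called in KO. Of the 25 genes tested in both comparisons, 17 had opposite signs in KO and OE and 8 had the same sign. The share of all genes with opposite signs was not computed, and of these 25 only C4a and C6 were called in KO. KO and WT varied more than OE and GFP, with biological coefficients of variation of 20.4% and 4.04%, and a fit that weighted the experiments separately also called 7 and 15.

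A list of 30 other complement genes was set beside these. In KO, 21 were tested and 1 was called, and in OE 17 were tested, of which 9 rose and 7 fell. Of all genes 0.692% were called higher and 1.02% lower in KO, and 43.9% and 42.7% in OE. Susd4, a membrane regulator, was at 0.193, 0.103 and 0.0821 CPM in KO, against 8.24, 5.76 and 6.67 CPM in WT (−5.73 ± 0.33, adjusted p = 0.000837). Like C4a it also fell in OE, to 1.94, 2.07 and 2.02 CPM, against 3.53, 3.71 and 3.39 CPM in GFP (−0.82 ± 0.16, adjusted p = 0.000265), though not under limma on TPM (adjusted p from 0.165 to 0.235). In OE, rises were seen for Colec12 (1.90), a scavenger receptor collectin, Cpn2 (1.61), a subunit of carboxypeptidase N, and Apcs (2.62), serum amyloid P. The catalytic subunit Cpn1 fell by 1.82, the pore inhibitor Vtn by 1.11 and the pentraxin Crp by 3.33 (adjusted p of 7.43e-09 or less for each of these). Ptx3, another pentraxin, held 390 counts over the OE libraries and 0 in GFP, which is at least 129-fold higher when 3 counts are set for the GFP group. Cr2, complement receptor 2, held 53 counts in OE against 3 in GFP, a ratio of 17.5 with a counting interval of 5.66 to 87.4. Its fitted log2 fold change of 3.84 was 4.69 without GFP1. It was not tested in KO, where it held 22 counts against 1 in WT, a ratio of 22.6 (counting interval 3.65 to 932.5). The difference of the 2 effects on Cr2 was not called (−0.45 ± 1.25, adjusted p = 0.843).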

How the data were processed

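RNA-Seq was run on poly(A) RNA of primary mouse hepatocytes, libraries being made with a stranded mRNA kit. Per the submitters' notes the reads were processed with Trimmomatic 0.36, STAR 2.5.1, Picard 1.84 and RSEM 1.2.22 on build mm10, and DESeq2 was used for their own comparisons. The authors deposited, per library and gene, RSEM expected counts, which are estimated and divide a read among the copies it fits, and TPM values, which RSEM scales by transcript length and to a fixed total. FPKM values in the same files were not used. Whether counting used strand is not given in the sources used here.

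Groups were taken from the sample labels. Expected counts were rounded to whole numbers and tested with edgeR 4.0.16 (R 4.3.3) on the 6 libraries of each comparison, with filterByExpr (minimum count 10, minimum total 15), TMM scaling, the quasi-likelihood F test and Benjamini-Hochberg adjustment over all genes tested, and calls were made at an adjusted p under 0.05. Errors of log2 fold changes are standard errors. The difference of effects was tested in 1 fit of all 12 libraries. Alternatives were DESeq2 1.42.0, its size factors, no filter or a stricter one (a mean of at least 5 CPM, and 1 CPM reached by 3 libraries), limma 3.58.1 on log2(TPM + 1) or log2(TPM + 0.1), a replicate block, voom with weights by experiment, and leaving out each library. The edgeR, DESeq2 and limma steps were first tested on simulated data. Genes were matched to GENCODE M21 (all 55450 identifiers) and promoters to RefSeq GRCm38.p6. Intervals for counts cover counting error only. At these depths, genes with a few counts could not be tested. Libraries of a group differed by more than sampling noise and were all kept as separate.

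The members and gene lists were chosen with earlier results of these data known. Each of the 34 genes was accounted for. Log2 fold changes were given for every tested gene in each comparison, and values by library for genes called with an absolute log2 fold change of at least 1, for those called in both comparisons and for C3, Hc and C4b. Values by library of further genes (the C1q genes, C1s1, Mbl1, Cfb, C8a, C4bp and Cd59a) were added after they were seen. Of the other complement genes, those called in both comparisons or with an absolute log2 fold change of at least 1 were named, except some that are not reported here.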

Additional observations from a re-analysis of the deposited data

Results flagged for a closer look

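For 22 of the 29 complement genes tested, the effect of gain differed from that of loss by the direct test of the 2 effects (OE over GFP less KO over WT, on the log2 scale, edgeR's quasi-likelihood test with adjusted p under 0.05). Of all 15326 genes tested, 25.9% were called with a positive and 28.1% with a negative difference. The difference was positive for C1rb (5.01), C6 (3.32), Cd55 (2.55), Masp1 (1.51), C1rl (1.37), Cd59a (1.17) and Mbl1 (0.68). It was negative for Mbl2 (−3.48), Clu (−2.72), C2 (−2.49), Cfp (−2.12), C4b (−2.11), Hc (−1.86), Cfi (−1.82), C8b (−1.46), Cfb (−1.41), Masp2 (−1.22), C8a (−1.19), C1s1 (−1.12), C9 (−1.04), C1ra (−0.80) and C8g (−0.38). Apart from C6, none of these was called in KO against WT on its own. Without WT3 the difference for Cd55 was 1.90, and without GFP1 that for C1rb was 5.60. The joint fit gave each gene 1 dispersion, although KO and WT libraries varied more than OE and GFP libraries, and voom with separate weights for the experiments called 22 as well. OE and GFP cells received a virus and KO and WT cells did not, which cannot be told apart from gain against loss. Groups of 3 libraries are too small for a test of single outlying libraries, and none was made.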

How the results depend on the processing

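In KO against WT, 2 complement genes of the 34 were called, and C4a and C6 were called under every alternative run. DESeq2 called 5 (C2 and C8a higher, Cd59a lower), the fit without a filter 4 (C2 and Cd59a), the joint fit of 12 libraries 8 (4 in each direction), and leaving out each library 2 to 4, with 4 only without KO3. Of the 30 other genes 1 was called, against 2 by DESeq2, 0 under the stricter filter, which left 12 of them to test, 5 in the joint fit and 1 with each library left out. In that comparison leaving out libraries gave log2 fold changes of −0.10 to 0.21 for C4b, −0.13 to 0.051 for Clu and −0.039 to 0.21 for Serping1. For the difference of effects it gave −1.08 to 0.44 for C1qa, −0.052 to 0.45 for C3 and −0.054 to 0.19 for Serping1. None of these genes was called in the comparison in question.

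In OE against GFP, alternatives called 23 to 28 complement genes against 25, and 12 to 17 of the others against 16. No direction turned for the 34. The calls of 22 were made under every alternative, and those of C8g, Cd59a and Serping1 were not. C4bp, not called, was called higher under 8 of 15. The log2 fold change of C1rb was 5.67 and of Cr2 4.69 without GFP1. For the difference, alternatives called 20 to 24 against 22. C8g, Cfp and Mbl1 lost their calls under some, and C4a was called by DESeq2 (adjusted p = 0.0297), and by edgeR without WT3 (0.0258) or KO2 (0.015). Over all genes, 203 were called in KO against WT, against 625 by DESeq2, 324 without a filter, 91 under the stricter filter, 70 to 112 by limma on TPM, 1205 in the joint fit and 42 to 396 with a library left out. The cause of these shifts was not tested.

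Deviations of libraries with the same replicate number correlated at −0.37 to 0.02 in KO and WT and −0.06 to 0.05 in OE and GFP, so the numbers were not taken to pair the samples. With the replicate block, 2 complement genes were called in KO against WT, 26 in OE against GFP and 20 for the difference, and of all genes 87 in KO against WT.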
